A study of Mus musculus with 30 samples.

Results

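Macrophage and leukocyte marker genes were followed through postnatal growth of the mouse sclera, the fibrous coat of the eye. The 10 genes were lysozyme 2 (Lyz2), colony stimulating factor 1 receptor (Csf1r), Cd68, mannose receptor C-type 1 (Mrc1), Cd163, protein tyrosine phosphatase receptor type C (Ptprc, also known as CD45), Cd14, TYRO protein tyrosine kinase binding protein (Tyrobp), Fc receptor IgE gamma chain (Fcer1g) and allograft inflammatory factor 1 (Aif1). They were chosen by symbol: a gene was taken from the transcript clusters (the array's probe groups for a gene) that the platform annotation assigns to that symbol alone, and with several such clusters the brightest would have been used. Each of the 10 genes had exactly 1, so that 10 of the 19938 genes named in this way, and 10 of 35556 transcript clusters, were followed.

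The sclera was profiled on 30 Affymetrix Mouse Gene 1.0 ST arrays, 6 at each of 5 ages. All animals were Balb/cJ mice, an albino inbred strain, aged 1, 2, 3, 6 or 8 weeks, and none was treated. Each array held the RNA of a single sclera of 1 mouse, the mice belonged to the same family, and no source used here gives their sex. Signals are on the log2 scale, on which a difference of 1 is a fold change of 2, and levels are compared between ages and not between genes.

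The deposited values carry a centring within weeks. In all 35556 transcript clusters, week 2 replicate 4 equalled the mean of week 2, and the mean of week 6 replicates 4 and 6 equalled the mean of week 6, each within 1e-04, whereas no other array or pair of arrays of a week did so. Week 2 replicate 4 therefore adds no spread of its own, and the week 2 values rest on 5 independent sclerae. Deviations of week 6 replicates 4 and 6 mirror each other. The 30 arrays hold 23 independent deviations from the week means, not 25. Tests are given without terms for these arrays. With the terms added, an alternative chosen after seeing the data, the same genes were called in each of the 10 comparisons, as they were without week 2 replicate 4. On adjusted p alone, Cd163 in week 6 versus 1 (adjusted p = 0.0999), Cd68 in week 8 versus 1 (adjusted p = 0.0503) and Lyz2 in week 8 versus 3 (adjusted p = 0.0527) no longer passed.

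Macrophages are phagocytes that reside in almost every connective tissue. Signalling through Csf1r keeps them alive, scavenger receptors such as Mrc1 and Cd163 take up material from outside the cell, and Cd68 lies in their lysosomes. Adaptor proteins such as Tyrobp and Fcer1g pass on signals of immune receptors that have no signalling tail of their own. Ptprc marks all nucleated cells of the blood lineage, so that it is carried by macrophages and by lymphocytes alike.

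The regions just upstream of these genes are shown because several of the genes moved together between ages. Promoters from RefSeq (build GRCm38.p6) were searched for 7 of the 10 genes, with 8 start sites, and are read 5′ to 3′ over the 250 bases before the start. Csf1r, Cd14 and Tyrobp were not among the 7, so that the counts of motifs do not cover them. The search of the marker genes left out 1 chromosome, which the share over all promoters kept. Capitals mark the letters of 3 motifs searched on both strands: GAGGAA, the box bound by PU.1, the master factor of myeloid cells; TGANTCA, bound by AP-1; and TTNNGCAA, bound by C/EBP factors. Mrc1 lies on the plus strand, at chr2:14229164-14229413, and held 3 PU.1 boxes. The promoter of Ptprc, at the first of its start sites, lies on the minus strand at chr1:138175306-138175555 and held 1.
Mrc1: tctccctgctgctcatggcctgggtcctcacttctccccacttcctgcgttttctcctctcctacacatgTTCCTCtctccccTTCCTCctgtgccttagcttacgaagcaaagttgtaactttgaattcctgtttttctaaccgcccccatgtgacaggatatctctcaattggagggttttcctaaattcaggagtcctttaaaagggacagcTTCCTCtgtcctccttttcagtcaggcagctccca
Ptprc: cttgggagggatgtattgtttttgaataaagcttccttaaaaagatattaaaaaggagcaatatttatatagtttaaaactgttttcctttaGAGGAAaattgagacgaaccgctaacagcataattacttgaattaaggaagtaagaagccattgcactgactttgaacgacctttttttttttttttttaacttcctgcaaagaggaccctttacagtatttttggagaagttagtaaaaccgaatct
Cd68, whose window at chr11:69666171-69666420 on the minus strand held letters of all 3 motifs, is printed for that reason.
Cd68: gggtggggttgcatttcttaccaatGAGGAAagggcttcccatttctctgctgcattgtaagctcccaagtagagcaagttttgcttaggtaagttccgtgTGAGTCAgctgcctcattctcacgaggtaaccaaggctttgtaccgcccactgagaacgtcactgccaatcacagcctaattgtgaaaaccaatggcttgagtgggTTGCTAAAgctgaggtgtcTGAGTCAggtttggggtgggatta
The PU.1 box was found in 4 of the 8 windows, those of Cd68, Mrc1, Ptprc and Aif1, and in 23.3% of 32851 promoters of the same length. AP-1 letters were found in 1 of the 8 windows (Cd68) and in 6.75% of all promoters, and C/EBP letters in 1 (Cd68) and in 9.56%. The windows of Lyz2, Cd163, Fcer1g and the other start site of Ptprc, whose window overlaps with the first, held none of the 3. A match is a run of letters and not a binding site, and the absence of these letters says nothing about the factors.

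Lyz2 has a close relative, lysozyme 1 (Lyz1), which lies beside it on chromosome 10. Transcripts of such near copies can share probes, but no transcript or probe sequence was compared. The promoters shown here lie before the start of the transcripts, so that their likeness does not bear on shared probes. The window of Lyz2 is chr10:117282273-117282522 and that of Lyz1 is chr10:117292869-117293118, both on the minus strand, and capitals in Lyz1 mark a C/EBP match.
Lyz2: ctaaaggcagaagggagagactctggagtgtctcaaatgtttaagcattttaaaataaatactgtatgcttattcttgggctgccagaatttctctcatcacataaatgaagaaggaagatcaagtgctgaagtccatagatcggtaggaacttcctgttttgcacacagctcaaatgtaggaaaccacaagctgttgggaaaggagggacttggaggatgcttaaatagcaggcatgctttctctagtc
Lyz1: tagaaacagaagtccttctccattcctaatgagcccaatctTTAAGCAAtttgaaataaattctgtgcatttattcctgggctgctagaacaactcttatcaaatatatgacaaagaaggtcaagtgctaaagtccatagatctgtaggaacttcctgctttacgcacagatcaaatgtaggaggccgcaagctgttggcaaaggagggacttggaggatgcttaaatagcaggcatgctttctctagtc
The windows were identical at 200 of 252 aligned columns (79.4%), and the last 50 bases before the start did not differ. How far the probes of each gene also detect the other was not tested, and the signal of Lyz2 is uncertain to that extent.

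Differences between ages were tested with limma on all transcript clusters of the 30 arrays, each week having its own mean, and p-values were adjusted by Benjamini-Hochberg within each comparison. A call required both a fold of 2 or more and an adjusted p no higher than 0.05. A moderated F test over the 5 weeks passed for all 10 genes, with adjusted p between 3.79e-12 (Ptprc) and 1.18e-05 (Tyrobp). That share says little by itself, because 91.3% of all transcript clusters passed.

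The week 2 sclera stood apart. Averaged over the 10 genes, the log2 signal lay between 5.53 and 5.88 in the 6 sclerae of week 2, below every array of the other weeks, in which the lowest value was 6.00. The week means of this average were 6.35 ± 0.20 at week 1, 5.71 ± 0.13 at week 2, 6.27 ± 0.15 at week 3, 6.60 ± 0.18 at week 6 and 6.43 ± 0.10 at week 8 (SD, n = 6 each). Over the 5 independent sclerae of week 2 the SD was 0.14, and for Lyz2 it was 0.67 in place of 0.60. Of the 10 genes, 7 had their lowest mean at week 2 (Lyz2, Csf1r, Cd68, Mrc1, Cd163, Tyrobp and Fcer1g), against 20.2% of all transcript clusters. In 3 of these, limma did not separate week 2 from the next lowest week. They were Cd68 against week 1 (adjusted p = 0.28), Tyrobp against week 3 (adjusted p = 0.281) and Fcer1g against week 8 (adjusted p = 0.303). Ptprc and Cd14 were lowest at week 3 and Aif1 at week 1. No gene was highest at week 2, while 4 were highest at week 6, 3 at week 8, 2 at week 3 and 1 at week 1. The arrays are of whole tissue, so that fewer cells of a type and less RNA per cell cannot be told apart.

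**Figure D1:**
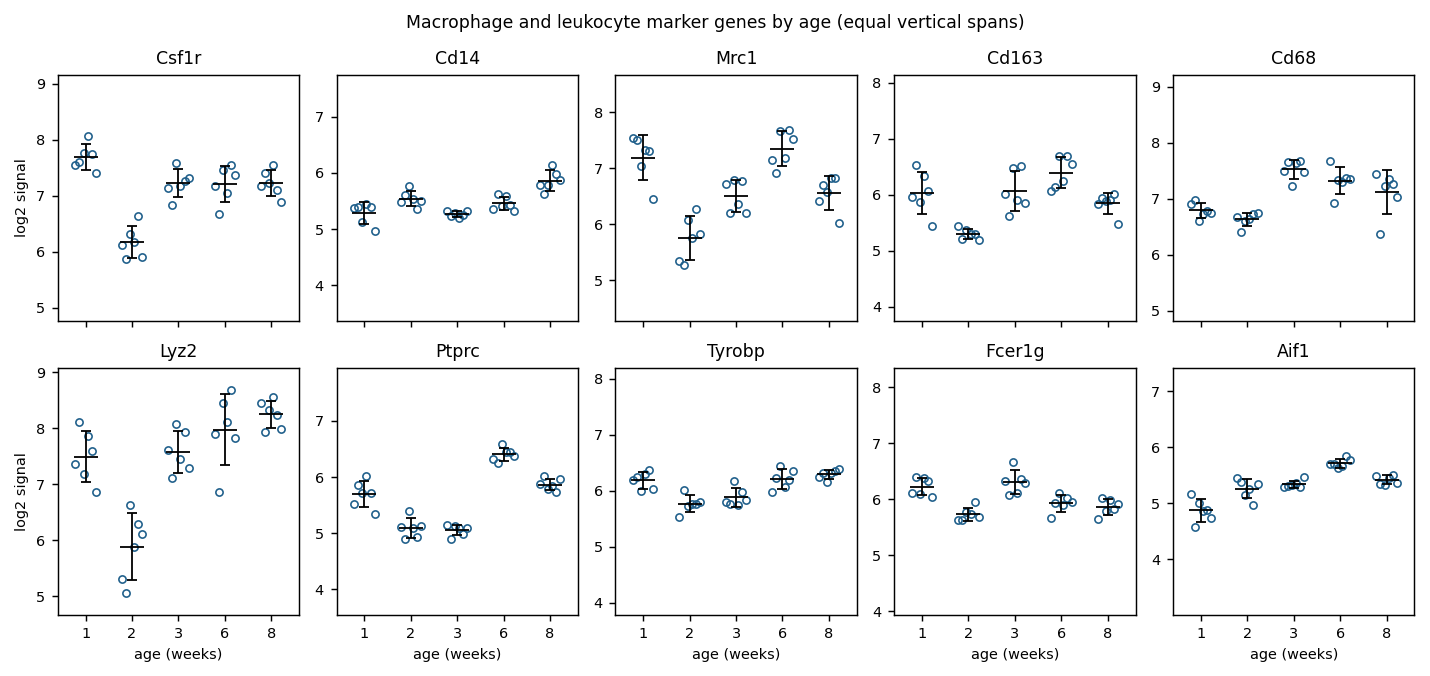
Log2 signal of the 10 marker genes (vertical axis, each panel spanning the same number of log2 units) against age in weeks (horizontal axis, ages evenly spaced and not to scale). Circles are single sclerae, 6 per age, and bars are the mean and SD; Lyz2, Csf1r and Mrc1 dip at week 2, Ptprc is highest at week 6, and Cd14, Tyrobp, Fcer1g and Aif1 move by less.

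Counts of called genes followed the same course. In week 2 versus 1, 3 of the 10 genes were called lower (Lyz2, Csf1r and Mrc1) and 0 higher, against 7.73% of all transcript clusters called lower. On adjusted p alone 7 were lower, against 31.1%. In week 3 versus 2, 2 were called higher (Lyz2 and Csf1r), against 2.67%, and 6 were higher on adjusted p alone, against 23.3%. In week 6 versus 3 only Ptprc was called higher, against 3.9%. In week 8 versus 6, 0 were called in either direction (background 3.78%), although 5 passed on adjusted p alone (background 36.2%). In either direction, adjusted p alone gave 9 genes in week 2 versus 1 (background 68.2%), 7 in week 3 versus 2 (51.2%) and 5 in week 6 versus 3 (55.4%), the last below its background. The median log2 fold change of the 10 genes was -0.55 in week 2 versus 1 (all clusters 0.06), 0.66 in week 3 versus 2 (all clusters -0.05), 0.33 in week 6 versus 3 (all clusters 0.09) and -0.14 in week 8 versus 6 (all clusters -0.07).

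The 6 arrays of the later week and the 6 of the earlier week did not overlap for 5 of the 10 genes between weeks 2 and 1 (34.7% of all clusters), 6 between weeks 3 and 2 (23%), 4 between weeks 6 and 3 (33.4%), 5 between weeks 8 and 6 (16.4%), 7 between weeks 6 and 2 (21.2%) and 5 between weeks 8 and 2 (8.99%). The share in week 6 versus 3 was near the background.

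Week 6 versus 2 gave the most calls among the 10 comparisons: 5 genes were called higher (Lyz2, Csf1r, Mrc1, Cd163 and Ptprc), against 4.92% of all clusters. Week 8 versus 2 gave 2 (Lyz2 and Csf1r), against 1.27%. On adjusted p alone 8 genes passed in each, against 49% for week 6 and 30.8% for week 8. These comparisons share the week 2 arrays. None of the 10 was called in week 3 versus 1 (background 7.15%), week 6 versus 1 (6.12%), week 8 versus 1 (7.19%) or week 8 versus 3 (5.12%). On limma's adjusted p alone these 4 comparisons gave 6 genes (background 48%), 6 (55.4%), 7 (54.1%) and 6 (43%). Cd68, Cd14, Tyrobp, Fcer1g and Aif1 were called in none of the 10 comparisons.

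**Figure D2:**
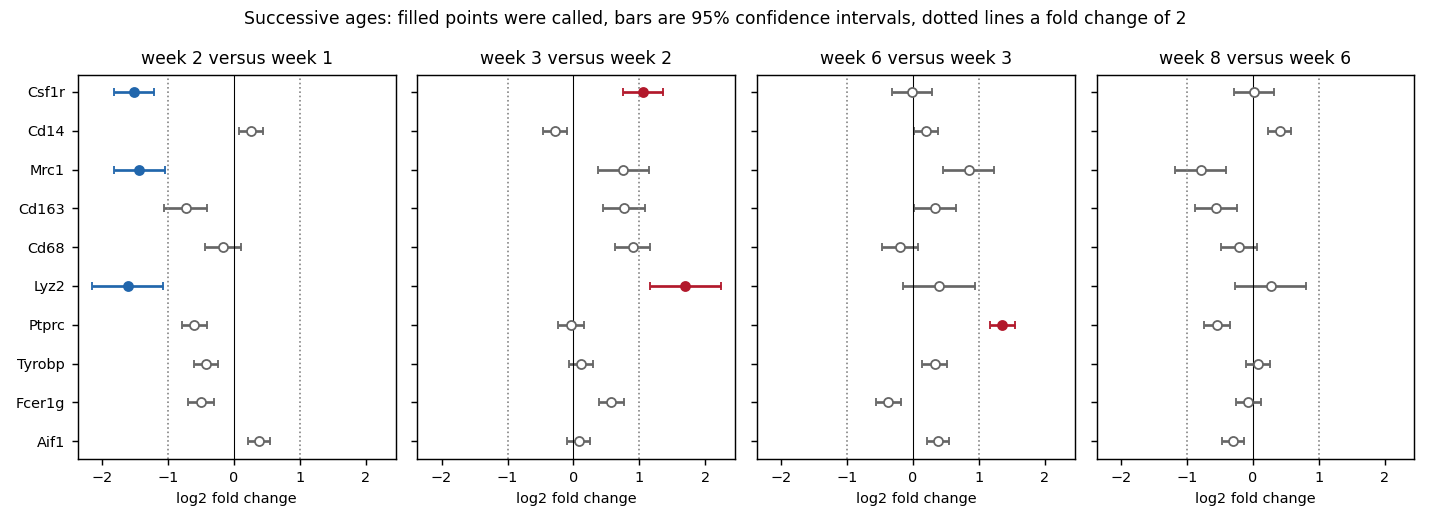
Log2 fold change (horizontal axis) of each marker gene (rows) between successive ages, later minus earlier, from limma; bars are 95% confidence intervals and dotted lines mark a fold change of 2. Filled points were called, blue for lower and red for higher: 3 genes fell in week 2 versus 1, 2 rose in week 3 versus 2, 1 rose in week 6 versus 3 and none was called in week 8 versus 6.

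Csf1r, the receptor for the macrophage growth factors Csf1 and Il34, was lowest at week 2. Its log2 signal (lowest, median and highest of 6 sclerae) was 7.40, 7.68 and 8.06 at week 1, 5.87, 6.15 and 6.64 at week 2, 6.84, 7.22 and 7.59 at week 3, 6.67, 7.27 and 7.54 at week 6 and 6.89, 7.20 and 7.55 at week 8. The arrays of week 2 overlapped with those of no other week. Csf1r fell in week 2 versus 1 (log2 fold change -1.52, SE 0.15, adjusted p = 2.75e-09) and rose in week 3 versus 2 (log2 fold change 1.05, SE 0.15, adjusted p = 2.77e-06). From week 3 onwards it was level, with means of 7.22, 7.21 and 7.22 at weeks 3, 6 and 8, and the log2 fold change of week 8 versus 1 was -0.46 (SE 0.15, adjusted p = 0.0102). The calls of weeks 3, 6 and 8 against week 2 lay at the fold threshold: leaving out week 2 replicate 2, week 2 replicate 6 or week 3 replicate 3 put the log2 fold change of week 3 versus 2 at 0.99, 1.00 or 0.98, just under a fold of 2, and the count of called genes at 1. The same happened in week 6 versus 2 without week 2 replicate 2 (0.98), week 2 replicate 6 (0.99), week 6 replicate 3 (0.99) or week 6 replicate 5 (0.97), which left 4 genes called. In week 8 versus 2 it happened without week 2 replicate 2 (0.99) or week 8 replicate 4 (0.99), which left 1.

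Of 22 listed partners of the marker genes (ligands, receptors, kinases and myeloid transcription factors), 21 had a cluster of their own and 5 were called somewhere: Il34, Tlr4, Lbp, Syk and Hmox1. No share of all clusters called somewhere is given beside this count. Spi1, which encodes PU.1, was called in no comparison. The ligands of Csf1r were not lowest at week 2 by a called difference. Csf1 averaged 6.99 ± 0.23 at week 1, 6.91 ± 0.15 at week 2, 7.26 ± 0.20 at week 3, 7.01 ± 0.28 at week 6 and 7.00 ± 0.13 at week 8 (SD, n = 6 each), and it missed the F test over the weeks (adjusted p = 0.0697). Il34, the other ligand, peaked at week 3, with means of 6.59, 6.82, 7.78, 6.49 and 6.56 at weeks 1, 2, 3, 6 and 8. Its week 3 arrays (7.34 to 8.26) lay above all those of the other weeks, whose highest value was 7.15. Il34 was called higher in week 3 versus 1 (log2 fold change 1.19, SE 0.15, adjusted p = 4.13e-07) and lower in week 6 versus 3 (-1.30, SE 0.15, adjusted p = 5.62e-08).

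Of the scavenger receptors, Mrc1, which binds mannose-rich glycoproteins and collagen fragments, moved most. Its lowest, median and highest log2 signals were 6.45, 7.31 and 7.54 at week 1, 5.27, 5.79 and 6.27 at week 2, 6.20, 6.54 and 6.80 at week 3, 6.92, 7.35 and 7.68 at week 6 and 6.02, 6.64 and 6.83 at week 8. Weeks 2 and 1 did not overlap, and neither did weeks 6 and 3 nor weeks 8 and 6. Mrc1 fell in week 2 versus 1 (log2 fold change -1.44, SE 0.19, adjusted p = 2.86e-07) and rose in week 6 versus 2 (1.59, SE 0.19, adjusted p = 1.37e-07). Against week 1, the log2 fold change was -0.68 at week 3 (SE 0.19, adjusted p = 0.00404) and 0.16 at week 6 (95% confidence interval -0.23 to 0.55, adjusted p = 0.488). In week 8 versus 6 it was -0.79 (SE 0.19, adjusted p = 0.0016), short of a fold of 2.

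Cd163, the haemoglobin-haptoglobin scavenger receptor, was likewise lowest at week 2 and highest at week 6, with smaller steps. It measured 5.44, 6.01 and 6.53 (lowest, median and highest) at week 1, 5.19, 5.30 and 5.44 at week 2, 5.62, 5.96 and 6.51 at week 3, 6.07, 6.40 and 6.70 at week 6 and 5.48, 5.90 and 6.02 at week 8. Week 2 was the tightest group, and its arrays lay below all arrays of the other weeks. The margin to week 1 was narrow, with a highest week 2 value of 5.435 and a lowest week 1 value of 5.442. Cd163 rose in week 6 versus 2 (log2 fold change 1.10, SE 0.16, adjusted p = 2e-06). In week 2 versus 1 the difference of -0.73 (SE 0.16, adjusted p = 0.000181) did not reach a fold of 2. Haptoglobin (Hp), whose complex with haemoglobin Cd163 takes up, and Hmox1, the enzyme that degrades haem, were on the list of partners: Hmox1 was called lower in week 2 versus 1 (-1.10, SE 0.16, adjusted p = 1.43e-06), and Hp was called in none of the 10 comparisons.

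Cd68, a glycoprotein of lysosomes, had a different order. The lowest, median and highest signals were 6.60, 6.76 and 6.98 at week 1, 6.41, 6.65 and 6.75 at week 2, 7.23, 7.56 and 7.67 at week 3, 6.93, 7.34 and 7.67 at week 6 and 6.37, 7.25 and 7.45 at week 8. Weeks 1 and 2 overlapped, and every array of week 3 was above both. The log2 fold change was -0.16 in week 2 versus 1 (95% confidence interval -0.43 to 0.11, adjusted p = 0.28) and 0.90 in week 3 versus 2 (SE 0.13, adjusted p = 5.13e-06), a fold of 1.86 that was not called.

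Lyz2, the lysozyme of macrophages and granulocytes, changed by the largest fold among the 10 genes. Its log2 signal (lowest, median and highest) was 6.86, 7.47 and 8.11 at week 1, 5.06, 6.00 and 6.64 at week 2, 7.11, 7.52 and 8.08 at week 3, 6.86, 8.00 and 8.68 at week 6 and 7.93, 8.28 and 8.55 at week 8. All week 2 arrays lay below all arrays of the other 4 weeks, and the week 8 arrays had the narrowest range. Lyz2 was 3.05-fold lower in week 2 versus 1 (log2 fold change -1.61, SE 0.26, adjusted p = 6.62e-06), 3.24-fold higher in week 3 versus 2 (1.69, SE 0.26, adjusted p = 1.07e-05) and 5.14-fold higher in week 8 versus 2 (2.36, SE 0.26, adjusted p = 2.9e-07). Ordered by level, the weeks ran 2, 1, 3, 6 and 8, and of the neighbours in that order only week 2 and week 1 differed at the threshold. Lyz1 was called in neither week 2 versus 1 nor week 3 versus 2, but it was called higher in week 8 versus 2 (1.32, SE 0.19, adjusted p = 7.53e-06) and in week 8 versus 1 (1.12, SE 0.19, adjusted p = 1.87e-05). Its means were 6.31, 6.11, 6.89, 7.05 and 7.43 at weeks 1, 2, 3, 6 and 8.

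The spread of the arrays was narrowest at the dip, but over weeks 3, 6 and 8 it ran opposite to the mean of the 10 genes. The interquartile range of all log2 values averaged 2.70 at week 1, 2.36 at week 2, 2.75 at week 3, 2.44 at week 6 and 2.53 at week 8, so that it was narrowest at week 2, also over the 5 independent sclerae (2.36). With this range as a covariate, Lyz2 was at -0.91 in week 2 versus 1 (adjusted p = 0.0549) and at 0.89 in week 3 versus 2 (adjusted p = 0.18), and Csf1r at 0.74 in week 3 versus 2 (adjusted p = 0.0572), and none of these was called. Csf1r also missed the fold threshold in week 6 versus 2 (0.97) and in week 8 versus 2 (0.92). Csf1r and Mrc1 were called lower in week 2 versus 1 with the covariate too. Lyz2 was called higher with it in week 6 versus 3 (1.03), week 6 versus 1 (1.01), week 8 versus 1 (1.11) and week 8 versus 3 (1.13), and Mrc1 in week 6 versus 3 (1.06).

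Ptprc, the phosphatase on all leukocytes, kept to another schedule. It measured 5.34, 5.71 and 6.01 (lowest, median and highest) at week 1, 4.89, 5.10 and 5.40 at week 2, 4.90, 5.09 and 5.14 at week 3, 6.25, 6.41 and 6.60 at week 6 and 5.72, 5.86 and 6.01 at week 8. All 6 sclerae of week 6 were above those of every other week, and weeks 2 and 3 overlapped. Ptprc was 2.55-fold higher in week 6 versus 3 (log2 fold change 1.35, SE 0.09, adjusted p = 3.09e-12). In week 3 versus 2, in which Lyz2 and Csf1r rose, its log2 fold change was -0.04 (95% confidence interval -0.23 to 0.15, adjusted p = 0.753). In week 8 versus 6 it was at -0.54 (SE 0.09, adjusted p = 4.24e-05), without overlap between the weeks but under a fold of 2.

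Cd14, which hands lipopolysaccharide to the receptor Tlr4, was lowest at week 3 and highest at week 8. It measured 4.97, 5.38 and 5.44 (lowest, median and highest) at week 1, 5.36, 5.52 and 5.76 at week 2, 5.19, 5.26 and 5.32 at week 3, 5.33, 5.43 and 5.62 at week 6 and 5.62, 5.83 and 6.15 at week 8. The week 8 arrays were above all arrays of weeks 1, 3 and 6 and overlapped with week 2. Its log2 fold change was 0.26 in week 2 versus 1 (adjusted p = 0.0114) and 0.41 in week 8 versus 6 (adjusted p = 0.000568), both small. Its partner Tlr4 was low at weeks 2 and 3 and highest at week 6, as Ptprc was, with means of 6.26, 5.24, 5.50, 6.50 and 6.19 at weeks 1, 2, 3, 6 and 8. Tlr4 was called lower in week 2 versus 1 (-1.02, SE 0.14, adjusted p = 4.29e-07) and higher in week 6 versus 3 (1.00, SE 0.14, adjusted p = 7.77e-07). Lbp, the serum protein that loads lipopolysaccharide onto Cd14, was called higher in week 3 versus 2 (1.55, SE 0.30, adjusted p = 0.000138) and lower in week 6 versus 3 (-1.03, SE 0.30, adjusted p = 0.00435), and Ly96, the co-receptor of Tlr4, was called in no comparison.

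The adaptors Tyrobp and Fcer1g carry the signalling motif that recruits the kinase Syk. Tyrobp ranged over 5.99 to 6.37 at week 1, 5.53 to 6.01 at week 2, 5.73 to 6.18 at week 3, 5.97 to 6.45 at week 6 and 6.15 to 6.38 at week 8. Fcer1g ranged over 6.04 to 6.40 at week 1, 5.63 to 5.95 at week 2, 6.08 to 6.66 at week 3, 5.66 to 6.11 at week 6 and 5.65 to 6.03 at week 8. Both were lower at week 2 than at week 1, Tyrobp with its arrays just overlapping and Fcer1g without overlap. In week 2 versus 1 the log2 fold change of Tyrobp was -0.43 (SE 0.09, adjusted p = 0.000188) and that of Fcer1g -0.49 (SE 0.09, adjusted p = 5e-05). In week 6 versus 3 they were on opposite sides of 0, Tyrobp at 0.33 (adjusted p = 0.00331) and Fcer1g at -0.38 (adjusted p = 0.0014), and the difference between the genes was not tested. Syk was not lowest at week 2: its means were 5.97, 6.82, 6.68, 6.41 and 7.06 at weeks 1, 2, 3, 6 and 8, and it was called higher in week 8 versus 1 (1.09, SE 0.11, adjusted p = 2.08e-08). The receptors that pair with the adaptors, among them Trem2, Clec5a, Fcgr1 and Fcgr3, were called in no comparison.

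Aif1, an actin-bundling protein of macrophages and microglia also known as Iba1, was lowest at week 1. Its lowest, median and highest signals were 4.58, 4.87 and 5.17 at week 1, 4.97, 5.30 and 5.46 at week 2, 5.28, 5.31 and 5.46 at week 3, 5.62, 5.70 and 5.84 at week 6 and 5.33, 5.41 and 5.51 at week 8. Week 6 lay above all other weeks and week 1 below weeks 3, 6 and 8. In week 6 versus 1 Aif1 was 1.79-fold higher (log2 fold change 0.84, SE 0.08, adjusted p = 1.01e-08), close to the fold threshold but not called. In week 2 versus 1 its log2 fold change was 0.39 (SE 0.08, adjusted p = 0.000186), opposite in sign to those of Lyz2, Csf1r and Mrc1.

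How far the 10 genes varied together was described by the correlation of each with the mean of the other 9 over the 30 arrays, which share animals of 1 family and the differences between ages. Pearson's r was 0.904 for Lyz2, 0.844 for Cd163, 0.799 for Mrc1, 0.693 for Csf1r, 0.691 for Tyrobp and 0.671 for Ptprc. It was 0.419 for Cd68, 0.281 for Fcer1g, 0.186 for Aif1 and 0.0085 for Cd14. After the week means were removed, r was 0.790 for Cd163, 0.767 for Mrc1, 0.760 for Lyz2, 0.619 for Csf1r and 0.604 for Fcer1g. It was 0.508 for Ptprc, 0.414 for Tyrobp, 0.352 for Cd14, -0.01 for Cd68 and -0.20 for Aif1, so that Cd14 was the lowest of the 10 over all arrays but not within weeks.

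Among all other genes, those most like the mean of the 10 scaled genes were complement factor B (Cfb, r = 0.916), interleukin 33 (Il33, 0.913), Pld4 (0.908), the coagulation factor subunit F13a1 (0.892), Apod (0.889), the oxidase subunit Cybb (0.889), Ust (0.881), Disp1 (0.876), Clip1 (0.874) and Txnrd1 (0.857). F13a1 and Cybb are genes of macrophages, and Cfb is a gene of the alternative complement pathway. Of these 10 genes, only Cybb was on any of the marker lists. Among these 10, the within-week r was highest for Cfb (0.860) and F13a1 (0.837) and lowest for Txnrd1 (0.380). The 5 genes most like Lyz2 were Clip1 (0.910), Apod (0.906), Pld4 (0.876), Il33 (0.871) and Emb (0.868).

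Further genes of macrophages gave a mixed account. Of 29 listed symbols, 1 of them an older name of Adgre1, 27 had a cluster of their own, and 12 of these were called somewhere, a count without a background share. In week 2 versus 1, 3 were called lower (C1qa, C1qc and Gpnmb), against 7.73% of all clusters, and 2 higher (Itgam and Lgals3), against 3.82%. In week 3 versus 2, 5 were called higher (Laptm5, Mertk, C1qb, C1qc and Gpnmb), against 2.67%. C1qa, C1qb and C1qc, the 3 chains of the complement protein C1q that macrophages make, had their lowest means at week 2 as Csf1r did. C1qc averaged 7.06 ± 0.23 at week 1, 5.74 ± 0.29 at week 2, 7.12 ± 0.21 at week 3, 6.58 ± 0.21 at week 6 and 6.81 ± 0.20 at week 8 (SD, n = 6 each), with a log2 fold change of -1.32 in week 2 versus 1 (SE 0.13, adjusted p = 3.31e-09) and 1.38 in week 3 versus 2 (SE 0.13, adjusted p = 7.45e-09). Cybb, Mpeg1, a pore-forming protein of phagosomes, and the lysosomal protease cathepsin S (Ctss) were highest at week 6, as Ptprc was. Cybb rose in week 6 versus 3 (1.06, SE 0.11, adjusted p = 2.99e-09), as did Mpeg1 (1.02, SE 0.09, adjusted p = 1.36e-10). Adgre1 and Cx3cr1, common markers of tissue macrophages, were called in no comparison. Adgre1 still had its lowest mean at week 2, with 5.85, 5.42, 5.56, 5.85 and 5.73 at weeks 1, 2, 3, 6 and 8, and Cx3cr1 at week 3 (6.27). The mean of the 27 genes was lowest at week 2 as well, with 6.29, 6.08, 6.53, 6.59 and 6.46. On adjusted p alone, 13 of the 27 were lower in week 2 versus 1 (all clusters 31.1%) and 7 higher (37.2%).

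Itgam and Lgals3, the integrin chain CD11b and galectin 3, ran against the marker genes. Itgam averaged 6.41 at week 1 and 8.59, 9.05, 8.42 and 9.01 at weeks 2, 3, 6 and 8, and Lgals3 7.59 at week 1 and 9.58, 9.35, 9.41 and 9.52. Both were called higher in week 2 versus 1, Itgam at 2.18 (SE 0.29, adjusted p = 3.04e-07) and Lgals3 at 1.99 (SE 0.25, adjusted p = 1.31e-07). Lgals3 is also abundant in epithelia, and the 10 genes of the surface epithelium list moved in the same direction, as given with the tissue lists. Gpnmb, which pigment cells also express, fell by 3.05 on the log2 scale in week 2 versus 1 (SE 0.36, adjusted p = 5.45e-08). The part of epithelium or pigment cells in the changes of Lgals3, Itgam and Gpnmb was not tested.

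**Figure D3:**
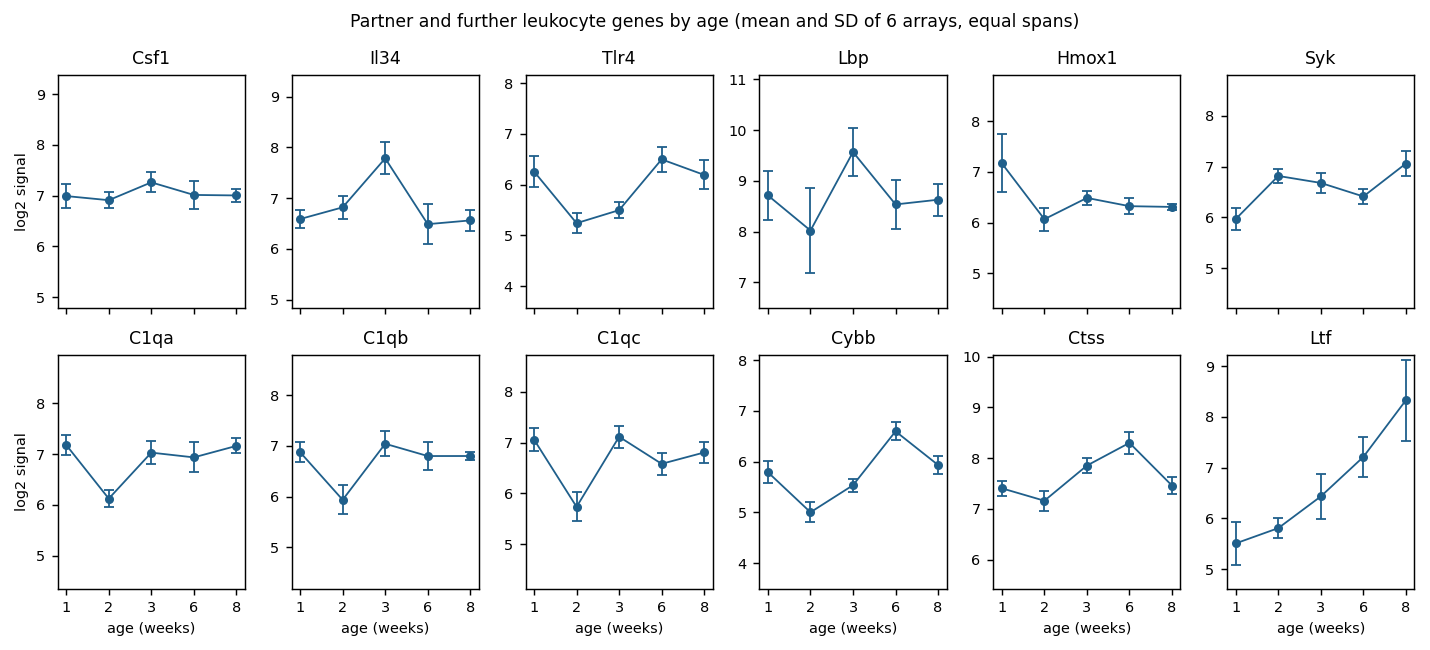
Log2 signal (vertical axis, each panel spanning the same number of log2 units) against age in weeks (horizontal axis, not to scale) for partners of the marker genes and further leukocyte genes; points are means of 6 sclerae, bars are SD and lines only join the means. The C1q chains and Tlr4 are low at week 2, Il34 and Lbp peak at week 3, Cybb and Ctss peak at week 6, Csf1 is nearly level and Ltf climbs to a mean of 8.33 at week 8.

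Defining markers of other leukocytes were counted in the same way, and many that were not called at a fold of 2 passed on adjusted p alone. The counts of called genes have no background, because no share of all clusters called in any of the 10 comparisons is given. Over the 10 comparisons, 1 of 13 measured neutrophil genes was called (Ltf), 1 of 13 genes of T and NK cells (Prf1), 0 of 6 of B cells, 1 of 12 of monocytes and dendritic cells (Plac8), 1 of 8 of microglia (Olfml3) and 2 of 8 of mast cells (Cpa3 and Kit). The mean log2 signal of the T and NK cell list was 4.80 at week 1, 5.27 at week 2, 4.96 at week 3, 5.17 at week 6 and 5.19 at week 8, and that of the neutrophil list was 4.59, 4.97, 4.81, 5.01 and 5.08. Neither list was lowest at week 2, and both lay below the lowest array median of 6.15 at every age. On adjusted p alone, week 2 versus 1 gave 10 of 13 T and NK cell genes higher and 9 of 13 neutrophil genes. For B cells it gave 5 of 6, and for monocytes and dendritic cells 8 of 12, against 37.2% of all clusters. It gave 3 of 8 higher and 4 lower for microglia, and 2 of 8 higher and 4 lower for mast cells, against 31.1% of all clusters lower. The microglia list, with 5.78, 5.59, 5.65, 5.83 and 5.62, and the mast cell list, with 6.27, 6.03, 6.20, 6.16 and 6.11, were lowest at week 2 as the 10 marker genes were, and Olfml3 (-1.25, SE 0.22, adjusted p = 2.29e-05) and Cpa3 (-1.06, SE 0.20, adjusted p = 3.64e-05) were called lower in week 2 versus 1. Ltf, which encodes lactoferrin, a protein of neutrophil granules and of glandular secretions, averaged 5.51 at week 1 and 8.33 at week 8, and was called higher in week 8 versus 1 (2.82, SE 0.27, adjusted p = 7.52e-09). The files hold no detection calls, so that a low signal cannot be told from absence.

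Markers of neighbouring tissues also changed with age, some in the direction of the marker genes and some against it. Collagen and matrix genes of scleral fibroblasts were bright, with a mean log2 signal of 9.45 to 10.64 over 12 genes, as the labelled tissue would have, but genes of retina, muscle and surface epithelium were bright as well. In week 2 versus 1, 7 of 8 genes of the retinal pigment epithelium, 9 of 9 of rods, 10 of 10 of striated muscle and 7 of 12 of scleral fibroblasts were called lower, and 10 of 10 of the surface epithelium higher. The pigment epithelium list ranged over 7.84 to 9.66 at week 1, 5.18 to 6.98 at week 2, 7.15 to 7.99 at week 3, 7.57 to 8.94 at week 6 and 5.65 to 8.19 at week 8. Its order of weeks resembled that of the marker genes in being lowest at week 2, and 7 of its 8 genes were called higher in both week 3 versus 2 and week 6 versus 2. The muscle list was low at weeks 2 and 3, with means of 11.23, 7.16, 6.86, 10.08 and 10.67 at weeks 1, 2, 3, 6 and 8, and all 10 of its genes were called higher in week 6 versus 3, in which Ptprc rose. The endothelium list was lowest at week 6, with a mean of 8.02 against 9.44 at week 3. In week 6 versus 3, 6 of its 8 genes were called lower, against 3.68% of all clusters. The part of these tissues in the changes of the marker genes was not tested.

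**Figure D4:**
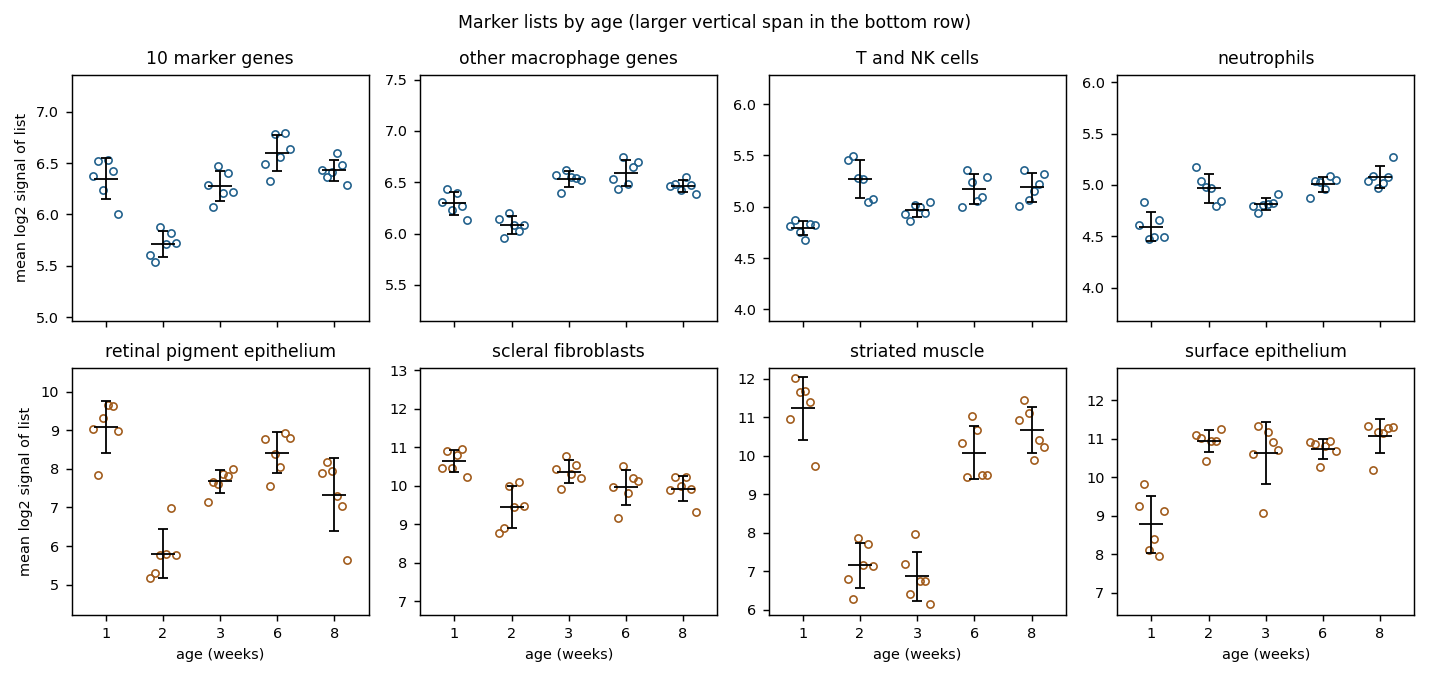
Mean log2 signal of each marker list (vertical axis) against age in weeks (horizontal axis, not to scale), with circles for single sclerae, 6 per age, and bars for the mean and SD; the vertical span is larger in the bottom row. The 10 marker genes, the pigment epithelium and the fibroblast lists are lowest at week 2, muscle is low at weeks 2 and 3, the surface epithelium is lowest at week 1, and the T and NK cell and neutrophil lists change by less than 0.5 between week means.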

How the data were processed

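RNA from 30 sclerae was hybridised to Affymetrix Mouse Gene 1.0 ST arrays. The deposited values are on the log2 scale, 1 per transcript cluster; the methods name robust multiarray averaging, the submitters' processing notes GCRMA and Partek 6.5, and the methods also name a removal of scan-date batches. The deposited values carry a centring within weeks 2 and 6 of the kind that such a removal leaves; which arrays shared a scan date is not stated, so no block on batch was fitted, and any batch that coincides with a week cannot be told apart from age. Gene names came from the platform annotation, in which 21789 of 35556 clusters had 1 symbol, 1621 several and 12146 none.

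The model, run in limma 3.58.1 (R 4.3.3) on all 35556 clusters, had a mean for each week, 10 contrasts, moderated tests (eBayes) and Benjamini-Hochberg adjustment within each contrast. Calls needed a fold of 2 or more with an adjusted p no higher than 0.05. The fit was tested on simulated data. Array medians lay between 6.15 and 6.37, and the number of arrays, 6 per week, limits the precision. Named genes were the 10 members, their partners by role, of each other list up to 4 genes with the smallest F test p and its defining markers, and the genes with the highest correlation with the members or Lyz2. Genes named because they were called in a comparison, such as C1qa, C1qb, Gpnmb, Itgam, Lgals3, Laptm5 and Mertk, were chosen after their values were seen. The members and lists were chosen with earlier results of these data known. Promoters came from RefSeq. Alternatives changed the terms for centred arrays, the scaling, array weights, array spread, filter, fold threshold, moderation, samples fitted and replicate block. Erythroid genes (4 of 12 measured, Alas2 called), endothelium (8 of 8 called) and cell cycle (2 of 9 called) were listed too, counts without a background share.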

Additional observations from a re-analysis of the deposited data

Results flagged for a closer look

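Of 55 groups of 6 sclerae examined (the 10 marker genes and their mean, by week), 1 held an array far from the others: Cd163 at week 8, in which replicate 6 had a log2 signal of 5.48, whereas the other 5 lay between 5.84 and 6.02. Chance gives about 1 such group in 20.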

How the results depend on the processing

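Calls of the 10 marker genes in the 10 comparisons were unchanged under quantile normalization, terms for the centred arrays, fits of the 2 weeks alone, contrasts without moderation and tests on clusters of 1 symbol. On adjusted p alone, the terms moved Cd163 in week 6 versus 1, Cd68 in week 8 versus 1 and Lyz2 in week 8 versus 3 above 0.05, as given above. Under median centring only Csf1r in week 6 versus 2 was lost (log2 fold change 0.99), and no called value changed sign. Restricting the test to clusters above the median signal kept 4 of the 10 genes (Lyz2, Csf1r, Cd68 and Mrc1), so that 4 differed over the weeks, with 0 calls (week 6 versus 3) and 3 calls (week 6 versus 2). The results for Cd163, Ptprc, Cd14, Tyrobp, Fcer1g and Aif1 thus rest on low signals. Array quality weights were void, because week 2 replicate 4, which has no deviation of its own, took a weight of 978000 against 0.324 to 0.461 for the other week 2 arrays. With the array spread as a covariate 2 genes were called for week 2 versus 1 (Lyz2 was lost), 4 genes for week 6 versus 2 (Csf1r was lost), 0 genes were called for week 3 versus 2, 3 genes for week 6 versus 3, and 1 gene each for week 6 versus 1, week 8 versus 1, week 8 versus 2 and week 8 versus 3. Without the fold threshold 9 genes passed for week 2 versus 1, 7 for week 3 versus 2, 5 for week 6 versus 3, 5 for week 8 versus 6, 6 for week 3 versus 1, 6 for week 6 versus 1, 7 for week 8 versus 1, 8 for week 6 versus 2, 8 for week 8 versus 2 and 6 for week 8 versus 3. The cause of the shifts with the covariate was not tested.

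Leaving out each of the 30 arrays in turn, an alternative added after seeing the data, gave 3 to 3 called genes for week 2 versus 1, 1 to 2 for week 3 versus 2, 1 to 1 for week 6 versus 3, 4 to 5 for week 6 versus 2, 1 to 2 for week 8 versus 2 and 0 to 0 for the other 5 comparisons, and 10 to 10 genes differed over the weeks. Replicate numbers did not pair the sclerae: deviations of same-numbered arrays had a median correlation of 0.02 over 56 pairs (-0.41 to 0.46), and 6 of 29 arrays were closest to their own number, week 2 replicate 4 being left out. A fit with the replicate block changed none of the 100 calls, so that the counts stayed at 3, 2, 1, 0, 0, 0, 0, 5, 2 and 0 in week 2 versus 1, 3 versus 2, 6 versus 3, 8 versus 6, 3 versus 1, 6 versus 1, 8 versus 1, 6 versus 2, 8 versus 2 and 8 versus 3. Of the 10 genes most like the marker genes, 5 were shared with Spearman correlation and 2 with deviations from the week means. No gene had another cluster to try.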
